A study of Saccharomyces cerevisiae with 14 samples.

Results

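The sites described here are 225 of the 1184 distinct cleavage sites measured in mRNA of diploid budding yeast entering meiosis, and they lie in 210 genes. They were chosen by their own measured values, as sites with no value at 0 h and 1 h, at least 3 values among 3.5, 4, 5 and 6 h, and a median of those values under 0.8. Of the 478 sites with that pattern of missing and present values, called late-listed sites here, the 225 low ones are the members and the other 253 had a median of 0.8 or more. Each value is a cleavage efficiency, the fraction of RNA cut at 1 ACA motif by MazF, an RNA endonuclease. A value near 1 is a site cut in almost all of the RNA, and a value near 0 is a site left almost intact.

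All 10 libraries of the time course came from polyA RNA of SK1, a laboratory strain that sporulates rapidly. Cells were grown in YPD at 30 °C and then induced to enter meiosis. They were diploid (MAT a/alpha), with both copies of each of these altered: lys2/lys2, then ho::LYS2/ho::LYS2, and also ndt80::LEU2/ndt80::LEU2. NDT80 encodes the transcription factor that yeast needs to leave pachytene, so in its absence meiosis stops in prophase. There was 1 library at each of 0, 1, 2, 3, 3.5, 4, 5, 6, 7 and 8 h, without replicates, and whether they came from 1 culture is not stated in the labels. The 4 further samples of the series, 2 with a deletion of ime4 and 2 wild-type controls, were not analysed here. Depth is unknown, and a library gave a value at 299 to 1171 of the 1184 sites, the fewest at 0 h and the most at 3.5 h.

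MazF cuts immediately before an ACA, and it does not cut where the first A of the motif carries a methyl group on its N6 position. In budding yeast, N6-methyladenosine (m6A) is placed on mRNA during early meiosis by a complex whose catalytic subunit is Ime4, mostly at an A that follows a purine and a G and precedes a C. A partly methylated site is therefore one where MazF leaves part of the RNA uncut. In bulk RNA, a site protected in part of the molecules of every cell and one protected fully in part of the cells cannot be told apart. Whether methylation accounts for the low cleavage of the members was not tested, since no library without Ime4 was analysed here.

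The sequences around the least cut members show what the set looks like. Each is given 5′ to 3′ in the sense of the mRNA, as 10 bases on either side of the ACA, with capitals for the ACA and the 2 bases before it. They were read from the R64 reference of strain S288C (RefSeq), at positions found by matching the gene-relative position in the table, and SK1 may differ from it in single bases. Coordinates are those of the ACA in R64. Of the 12 members with the lowest median over 3.5 to 6 h, 11 were matched, and CBK1_2429, in the gene of a kinase of cell separation, was not.
HFA1_6502 (chr13:677210-677212, minus strand): aggttggtGGACAgtaagcgaaa
HOP2_852 (chr7:436326-436328, plus strand): tgtattttGAACAtttttcgaga
ATG33_732 (chr12:840902-840904, plus strand): atggggaaGGACAatttatctag
SNU71_653 (chr7:515056-515058, plus strand): gatacccaGGACAtttttataag
HTA2_677 (chr2:235263-235265, minus strand): tttattaaAGACAgtgtatagta
TFB2_753 (chr16:320162-320164, minus strand): ccaattatGGACAttattattgc
PHM7_2312 (chr15:164517-164519, plus strand): gaaatcaaGGACAttgcagatga
MIP1_3889 (chr15:939644-939646, minus strand): ctggaaagGGACAttactatttc
RBD2_939 (chr16:84506-84508, minus strand): gactgcctAGACAtttgtatcgc
TDA3_1583 (chr8:124245-124247, minus strand): ttgcaagtGGACAttcttgttgg
PDS5_2971 (chr13:417206-417208, minus strand): aaaccttcGGACAttattaaatt
The number in each name is the table's position in the gene. Among these 11 sequences, HOP2_852 is the exception in having no G before its ACA, and it is also the one that R64 places in an intron.

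A second set of sequences shows late-listed sites in genes of members that were cut well themselves, with the same use of capitals. HFA1_6400 had a median of 0.895 over 3.5 to 6 h, MIP1_2854 a median of 0.873, and PCH2_674 a median of 0.926.
HFA1_6400 (chr13:677312-677314, minus strand): attgacaaGAACAttgaagagtt
MIP1_2854 (chr15:940679-940681, minus strand): agcgaaaaGGACAaatacagagc
PCH2_674 (chr2:601076-601078, plus strand): aacgagtcGGACActtatcacat
Each of these 3 well-cut sites, picked after their values were seen, has another ACA close by, 6 bases away in HFA1, 6 in MIP1 and 9 in PCH2. Of all 21 matched sites of this kind in the members' genes, 6 had no other ACA within 30 bases. In the low members of HFA1 and MIP1 printed above, the nearest other ACA was 33 and 31 bases away. It was nearer in TDA3_1583, PDS5_2971, TFB2_753, RBD2_939 and ATG33_732, at 20, 21, 25, 26 and 30 bases. In PHM7_2312, HTA2_677 and HOP2_852 it was 31, 32 and 45 bases away, and SNU71_653 had none within 50 bases.

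The members ran from 0.00468 to 0.799 by their median over 3.5 to 6 h, up to the limit that the rule sets, with a median of 0.591 over the 225 sites. These values chose the members and are given as a description. Of the 225 sites, 16 had a median under 0.1, 28 lay between 0.1 and 0.3, 39 between 0.3 and 0.5, and 142 (63.1%) between 0.5 and the threshold. The set is thus made up mostly of partly cut sites, with a small group that was hardly cut at all. At the threshold the values ran on without a gap. The members just inside were TFC6_1323 at 0.7987, HKR1_5690 at 0.7992 and SLT2_1594 at 0.7994, and the late-listed sites just outside were EPL1_2186 at 0.8009, RGA2_3110 at 0.8024 and PLB2_520 at 0.8034.

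**Figure D1:**
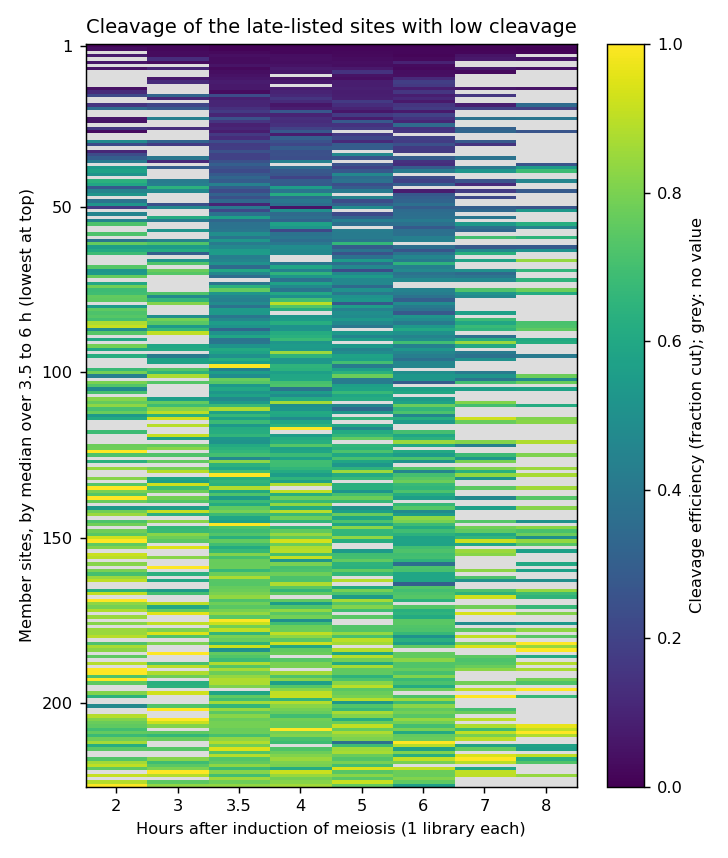
Cleavage efficiency (colour, fraction cut) of the 225 members in each library from 2 to 8 h, with 1 row per site ordered by the median over 3.5 to 6 h and grey where no value was listed. The 16 rows at the top, with a median under 0.1, stayed at or under 0.331 at 2, 3, 7 and 8 h where a value was listed, and values were sparsest at 7 h (120 sites) and 8 h (86 sites).

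Among the least cut sites, HFA1_6502 lies in the coding sequence of the mitochondrial acetyl-CoA carboxylase, 19 bases before the end of the stop codon. It had 0.0154, 0.0178, 0.00445, 0.00459, 0.00476, 0.00518, 0.0138 and 0.0182 at 2, 3, 3.5, 4, 5, 6, 7 and 8 h. Every one of these libraries gave it a value under 0.02. HOP2_852, in the gene of a meiosis-specific protein of homologous chromosome pairing, had 0.0387, 0.023, 0.0111, 0.0175, 0.0191, 0.0181, 0.012 and 0.00998 at 2, 3, 3.5, 4, 5, 6, 7 and 8 h. Its values at 2 and 3 h were its highest and its value at 8 h its lowest. R64 places HOP2_852 in an intron, which spliced mRNA lacks, so its low values may not stand for an intact site in mRNA. PHM7_2312 had 0.0529, 0.104, 0.0264, 0.0732, 0.0669, 0.0257, 0.0625 and 0.0496 at 2, 3, 3.5, 4, 5, 6, 7 and 8 h. The values of PHM7_2312 went up and down with no order in time.

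ATG33_732, in the gene of a mitochondrial protein needed for mitophagy, had no value at 2 h and lay between 0.0133 and 0.0288 in the other 7 libraries. CBK1_2429 lay between 0.0133 and 0.0778 over 7 libraries, and SNU71_653, in the gene of a component of the U1 small nuclear ribonucleoprotein, between 0.0244 and 0.126. Each was highest at its first listed hour, 2 h for CBK1_2429 and 3 h for SNU71_653, and lowest at 6 h. The fall was not steady, since CBK1_2429 was already at 0.0288 at 3 h. At 7 h both were higher again, CBK1_2429 at 0.051 and SNU71_653 at 0.0694. HTA2_677 lies 129 bases after the stop codon of a histone H2A gene, whose paralog HTA1 has a near-identical coding sequence, and it lay between 0.0313 and 0.0976 over 6 libraries. MIP1_3889, 25 bases before the end of the stop codon of the mitochondrial DNA polymerase gene, lay between 0.031 and 0.145 over 5 libraries. TDA3_1583 lay between 0.0415 and 0.12, and PDS5_2971, in the gene of a cohesin regulator, between 0.0646 and 0.184, over 5 libraries each. TFB2_753, in the gene of a subunit of the transcription factor TFIIH, had only the 4 values that chose it, from 0.0346 to 0.0524. RBD2_939, which starts at the first base after the stop codon of a rhomboid family gene, had 3 values, from 0.0404 to 0.0522.

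The question that the choice of members does not settle is what they did at 2, 3, 7 and 8 h, the libraries the rule left out. The median over the members with a value was 0.738, 0.703, 0.612 and 0.669 at 2, 3, 7 and 8 h (151, 130, 120 and 86 sites). Over the late-listed sites with a median of 0.8 or more it was 0.912, 0.905, 0.898 and 0.905 at 2, 3, 7 and 8 h (176, 150, 119 and 96 sites). The members were thus lower at each of these hours too. Of the members, 70.9% lay under 0.8 at 2 h (95% Clopper-Pearson interval 62.9 to 78.0), and 72.3%, 78.3% and 69.8% did at 3, 7 and 8 h. Of the better cut late-listed sites, 13.1%, 9.33%, 16% and 13.5% did at 2, 3, 7 and 8 h. Counted over all 4 hours, 355 of 487 member values (72.9%) were under 0.8, against 69 of 541 (12.8%) at the better cut late-listed sites. The better cut sites were split off at the same threshold and are high by choice. Over all sites that were not members, 730 of 2758 values (26.5%) were under 0.8, and over all sites 1085 of 3245 (33.4%). Intervals over sites cover the number of sites only, not the error of a library.

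Members that were lower between 3.5 and 6 h were also lower at the other hours. All 33 values that the members under 0.1 had at 2, 3, 7 and 8 h lay between 0.00998 and 0.331, with a median of 0.051. The 51 such values of members between 0.1 and 0.3 lay between 0.0332 and 0.687, and the 82 of members between 0.3 and 0.5 lay between 0.178 and 0.842. Of the 321 values of members between 0.5 and 0.8, 59.5% were under 0.8. The bands kept their order, but their ranges overlapped. Across members, Spearman's rho between the median over 3.5 to 6 h and the value in 1 other library was 0.719 at 2 h (n = 151 sites), 0.716 at 3 h (n = 130), 0.822 at 7 h (n = 120) and 0.648 at 8 h (n = 86). These are descriptions across sites, since all sites of a library share its preparation and depth.

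**Figure D2:**
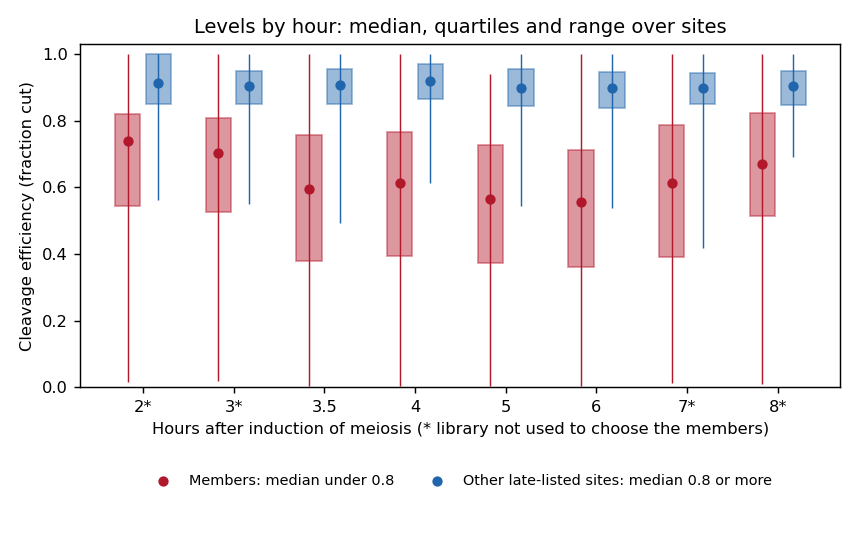
Cleavage efficiency (y axis, fraction cut) by hour after induction for the members (left, red) and the late-listed sites with a median of 0.8 or more (right, blue). Points are medians over sites, boxes quartiles and lines the full range, and at 2, 3, 7 and 8 h, which the rule did not use, the member medians were 0.738, 0.703, 0.612 and 0.669, below the blue medians of 0.912, 0.905, 0.898 and 0.905.

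The median SD of a site over 2 to 8 h was 0.114 for the members and 0.0577 for the better cut late-listed sites. It was 0.0256 for the members with a median under 0.1, which varied less than the better cut sites. The members have lower levels by choice, and the part that the level plays in these SDs was not tested. Few members were followed throughout: 46 of the 225 had a value in all 8 libraries from 2 to 8 h, 28 had none at 2, 3, 7 or 8 h, and 101 had none at 7 and 8 h. Of the 46, the lowest value fell at 6 h in 13 and at 5 h in 8, and the highest at 2 h in 17, at 8 h in 10 and at 3 h in 9. The hours of the lowest values are among those that chose the members. Many values recurred to all digits within a library, 63.3% of the member values under 1 from 2 to 8 h and 59.3% of those of all other sites. PDS5_2971, RNP1_255 and ECM33_359 all had 0.0818 at 5 h, for example. The precision of such repeated values is unknown.

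The rule that chose the members did not use the base composition around the ACA. Whether the sites of the table were themselves picked by sequence is not known here. Of the 197 members matched to R64, 190 (96.4%) had a G just before the ACA, against 201 of 221 (91%) of the better cut late-listed sites and 21.5% of all 38389 ACA motifs in the coding sequences of the listed genes. GGACA or AGACA, the sequence setting described for yeast m6A, was found in 188 members (95.4%), in 199 of the better cut late-listed sites (90%) and in 12.2% of all coding ACA motifs. GGACA made up 137 members (69.5%), against 58.8% of the better cut late-listed sites, and AGACA made up 51 (25.9%), against 31.2%. The table as a whole is thus rich in this motif, within the members and outside them (88.3% of the sites that were not members). The gap to all coding ACA motifs therefore belongs to the whole table and is not particular to the members. The motifs were searched on the strand of the mRNA only, and a match describes the sequence without showing that a base was methylated.

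The members and the better cut sites differed more in the second base after the ACA. GGACA or AGACA followed by any base and then a T, here called the motif with the T, was found in 156 of 197 members (79.2%). It was found in 135 of 221 better cut late-listed sites (61.1%), in 525 of 836 sites that were not members (62.8%) and in 4.13% of all coding ACA motifs. Within the members this share was 89.7% at medians under 0.3, 86.1% between 0.3 and 0.5 and 73.8% from 0.5 up. The first base after the ACA was a T in 51.8% of all members and 37.6% of all sites that were not members. By band it was a T in 64.1% of the members under 0.3, 69.4% between 0.3 and 0.5 and 42.6% from 0.5 up. Among the better cut late-listed sites it was a T in 33.5%. A C in that place was found in 6.09% of all members and 14.6% of all sites that were not members. It was found in 0 of the 39 members under 0.3, against 18.1% of the better cut late-listed sites. The sequences of SNU71_653, TFB2_753 and PDS5_2971 above, each with TT after the ACA, are of this kind.

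Taken from the side of the motif, GGACA sites with the T were the lowest of the late-listed sites. Of 179 such sites, 107 (59.8%) were members, against 30 of 88 GGACA sites without it (34.1%), 49 of 112 AGACA sites with it (43.8%) and 2 of 8 AGACA sites without it (25%). In the libraries the rule did not use, GGACA sites with the T had medians of 0.782, 0.813, 0.771 and 0.813 at 2, 3, 7 and 8 h. GGACA sites without the T had medians of 0.9, 0.898, 0.865 and 0.872 at 2, 3, 7 and 8 h. The sites with the T were thus lower at each of the 4 hours, by less than the spread among sites.

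The members also differed from the better cut sites in how often another ACA was near. Any ACA in the R64 sequence was counted, whether or not it was a listed site. Another ACA lay within 30 bases of 49 of 197 members (24.9%), against 137 of 221 better cut late-listed sites (62%) and 47.8% of all sites that were not members. Within 10 bases the shares were 10.7% of the members, 23.5% of the better cut late-listed sites and 16.3% of all sites that were not members. No other ACA was found within 50 bases in 32.5% of the members, 17.2% of the better cut late-listed sites and 29.2% of all sites that were not members. Among the members under 0.3 that share was 12.8%, while another ACA lay within 30 bases in 25.6% of them. How reads from neighbouring cuts enter a cleavage efficiency is not stated in the sources used here, and the part that neighbouring motifs play in the levels was not tested.

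The late-listed sites were also split by both properties at once. Of 186 sites with no other ACA within 30 bases and a T as the second base after the ACA, 127 (68.3%) were members, and their medians were 0.759, 0.782, 0.72 and 0.777 at 2, 3, 7 and 8 h. With no other ACA but another base in that place, 21 of 46 sites (45.7%) were members, with medians from 0.825 at 8 h to 0.897 at 7 h. With another ACA within 30 bases, 38 of 132 sites with the T (28.8%) were members, with medians from 0.881 at 2 h to 0.904 at 8 h. With another ACA and another base, 11 of 54 (20.4%) were, with medians from 0.865 at 7 h to 0.911 at 2 h and 3 h. The first class had the lowest median at each hour that the rule did not use, and its quartiles overlapped those of the others.

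**Figure D3:**
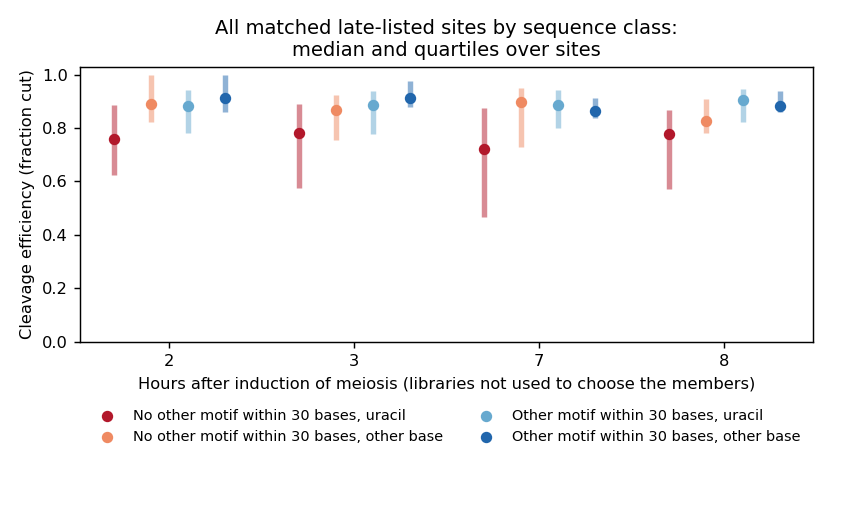
Cleavage efficiency (y axis, fraction cut) at 2, 3, 7 and 8 h of all late-listed sites matched to R64, split by whether another ACA, listed as a site or not, lay within 30 bases and by whether the second base after the ACA was a uracil. Points are medians and bars quartiles over sites, and sites with no other ACA nearby and a uracil had the lowest median at every hour, from 0.72 at 7 h to 0.782 at 3 h.

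Members with a sequence other than GGACA or AGACA were few, and all 9 are named here, having been chosen after their values were seen. HOP2_852, YPL113C_1483, CAX4_875, STS1_923 and ATG11_2447 had GAACA, HEM13_1177 and AHA1_1177 had TGACA, and PMT2_2543 and LDO16_614 had AAACA. Apart from HOP2_852 at 0.0178, their medians over 3.5 to 6 h ran from 0.429 in HEM13_1177 to 0.787 in ATG11_2447. Of the 39 matched members under 0.3, 38 had GGACA or AGACA and HOP2_852 was the exception.

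By place in the R64 annotation, 164 of the 197 matched members (83.25%) lay in coding sequence, 32 (16.24%) after the stop codon and 1, HOP2_852, in an intron. The sites after the stop codon were 1 to 211 bases past it, with a median of 43. Of the better cut late-listed sites, 93.67% lay in coding sequence and 9 of 221 (4.072%) after the stop codon. The share after the stop codon was 9.928% over all sites that were not members and 11.13% over all sites, nearer to that of the members. Of the 41 late-listed sites after a stop codon, 32 (78%) were members, against 164 of 371 in coding sequence (44.2%). In the libraries the rule did not use, late-listed sites after the stop codon had medians of 0.781, 0.751, 0.585 and 0.831 at 2, 3, 7 and 8 h (20, 20, 16 and 8 sites), against 0.846, 0.858, 0.846 and 0.85 at 2, 3, 7 and 8 h in coding sequence. These sites are few, and the order was clearest at 7 h. By the median that the rule used, all sites that were not members had 0.7774 after the stop codon and 0.886 in coding sequence. Over all sites the medians were 0.7284 and 0.8604, so a lower level after the stop codon was not particular to the members. The better cut late-listed sites, high by choice, had 0.8978 and 0.8986. Within 300 bases of the stop codon, on either side, lay 45.18% of the members, 34.39% of the better cut late-listed sites and 44.86% of all sites that were not members.

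Several genes held more than 1 member, and the sites of 1 gene depend on the abundance of its mRNA. The table lists 14 genes with 2 or more members, 29 sites in all, and POL2, the catalytic subunit of DNA polymerase epsilon, is the one gene with 3. POL2_3529 had 0.298, 0.393, 0.193, 0.241, 0.252, 0.294 and 0.381 at 2, 3, 3.5, 4, 5, 6 and 7 h. POL2_3494, 35 bases before it, had 0.452, 0.412, 0.33, 0.321, 0.43 and 0.414 at 2, 3, 3.5, 4, 5 and 6 h. POL2_4598 had 0.785, 0.677, 0.689, 0.757, 0.662, 0.694, 0.751 and 0.713 at 2, 3, 3.5, 4, 5, 6, 7 and 8 h. In every library with values for all 3 sites, POL2_4598 was the highest and POL2_3529 the lowest.

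The levels of sites in 1 gene were often far apart. The medians over 3.5 to 6 h differed most in PDS5, at 0.0793 and 0.578 for sites 1516 bases apart, then in POL2 (0.247 to 0.691), PHM7 (0.0466 and 0.484, 261 bases apart) and HFA1 (0.00468 and 0.368, 1506 bases apart). In GIP4, which encodes a protein that binds the type 1 phosphatase, they were 0.352 and 0.7, and in RAD50, of the Mre11 complex that processes DNA double-strand breaks, 0.396 and 0.738. RAD50_374 had 0.721, 0.493, 0.377, 0.415 and 0.37 at 2, 3.5, 4, 5 and 6 h, while RAD50_3323 had 1, 0.72, 0.757, 0.867 and 0.641 at those hours. At each of the 5 hours the site at 374 was the lower. In GSM1 the sites 44 bases apart had medians of 0.56 each.

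**Figure D4:**
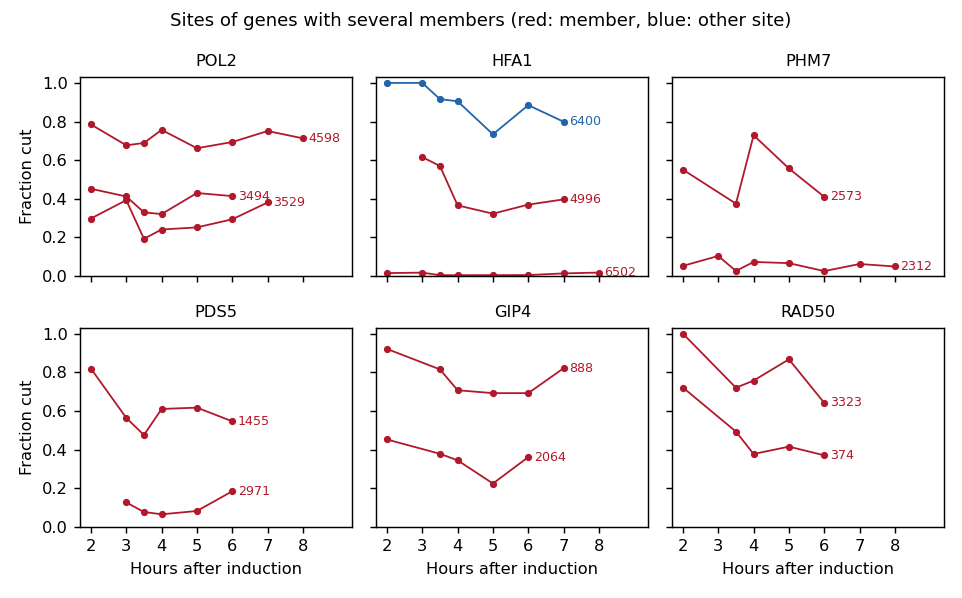
Cleavage efficiency (y axis, fraction cut) by hour for every listed site of 6 genes with 2 or more members, each line labelled with the site's position in the gene and joining the hours with a value. Red lines are members and the blue line is the HFA1 site that is not one, and sites of 1 gene stayed apart over the hours, as at HFA1 with medians of 0.00468, 0.368 and 0.895.

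Members also lay close to better cut sites of the same gene. Of the 210 genes, 49 held 59 other sites, 30 of which had a value at 0 or 1 h. HFM1_3888, after the stop codon of the gene of a meiotic helicase that promotes crossovers, had values from 0.375 at 7 h to 0.634 at 4 h, while HFM1_3881, only 7 bases before it, lay between 0.89 and 0.94 in its 9 libraries. HOP2_920, 68 bases after HOP2_852 and past the intron, was cut in part, with 0.935, 0.77, 0.638, 0.511 and 0.674 at 1, 2, 6, 7 and 8 h and a median of 0.651 over 3.5 to 6 h. MCM3_1223, in the gene of a subunit of the replicative helicase, had 0.0926, 0.142, 0.148 and 0.345 at 3.5, 4, 5 and 6 h, while MCM3_1269 was at 0.855, 0.833, 0.661 and 0.811 at those hours. In PCH2, an ATPase gene of the meiotic checkpoint, the medians over 3.5 to 6 h were 0.926, 0.817, 0.431 and 0.204 at positions 674, 1283, 1670 and 1881. The last of these is the one member. In HFM1, MCM3 and PCH2, low and high cleavage thus occurred at different sites of 1 gene, in the same libraries. Bulk values do not show whether these sites were on the same RNA molecules. In HOP2 the low values may not stand for mRNA, since R64 places HOP2_852 in an intron, which spliced mRNA lacks.

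By gene group, 51 of the 225 members fell in 1 of 24 lists of genes by process. Of all sites 19% were members, and 47.07% of all late-listed sites, which are the ones that could be. Early meiotic recombination and synapsis had 7 members among 21 sites, 12 of them late-listed. Besides HOP2_852, PCH2_1881, both RAD50 sites and HFM1_3888, they included MSH4_2395, in the gene of a MutS homolog that acts at crossovers, with a median of 0.597. MSH4_2395 had 0.606, 0.923, 0.569, 0.481, 0.651, 0.624, 0.922 and 0.812 at 2, 3, 3.5, 4, 5, 6, 7 and 8 h. Its values at 3, 7 and 8 h were above all those that chose it.

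Cohesin, condensin and kinetochore genes had 6 members among 13 sites, all 13 late-listed, a share of 46.2% that is near that of all late-listed sites. After PDS5_2971 the lowest was SPC105_1253, in a kinetochore gene, with 0.0529, 0.154, 0.128, 0.281 and 0.103 at 2, 3.5, 4, 5 and 6 h. SMC1_3349, of cohesin, had 0.759, 0.475, 0.454, 0.501, 0.509, 0.378 and 0.469 at 2, 3, 3.5, 4, 5, 6 and 7 h. SMC2_2407, of condensin, had 0.738 at 2 h and 0.393 to 0.525 from 3 h to 6 h, and PDS5_1455 had 0.819 at 2 h and 0.475 to 0.617 from 3 h to 6 h. At SMC1_3349, SMC2_2407 and PDS5_1455 the value at 2 h lay above all later ones. SPC105_1253 went the other way, with its lowest value at 2 h, and PDS5_2971 had no value at 2 h. The rule chose all of these sites by low values at 3.5 to 6 h, which favours a higher value at 2 h. YCS4_3397, also of condensin, was close to the threshold at 0.778.

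DNA replication and repair had 9 members among 34 sites, 19 of them late-listed. The 6 lowest were MCM3_1223, the POL2 sites, SLD2_1124 (replication initiation) at 0.591 and RAD54_2528 (a DNA translocase of recombinational repair) at 0.674. The others were in ORC1 (origin recognition), POL3 (DNA polymerase delta) and EXO1 (a 5′ exonuclease), at 0.768 to 0.793. Spindle genes had 2 of 12, 11 of them late-listed, STU1_4312 at 0.121 and ASE1_2978 at 0.512, both in genes of microtubule-binding proteins. The NDT80 targets had 2 of 3, DIT1_1734 of spore wall formation at 0.45 and CDC5_1096, the polo kinase, at 0.765, in cells labelled ndt80::LEU2/ndt80::LEU2.

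Outside the chromosome, membrane trafficking had 6 members of 23 sites, 13 of them late-listed, from VPS33_2046, of vacuolar fusion, at 0.426 to EXO70_1457, of the exocyst, at 0.773. Between them lay DNF1_3642, a lipid flippase, at 0.575, SEC7_3950 and SEC7_3683, an exchange factor of the Golgi, at 0.658 and 0.661, and SEC16_6002, of vesicle formation at the endoplasmic reticulum, at 0.761. Translation factors had 2 of 8 sites (6 late-listed), HYP2_431 (eIF5A) at 0.299 and GCD11_1759 (eIF2 gamma) at 0.671, and nutrient signalling 2 of 17 (8 late-listed), among them AVO2_1016 (a TORC2 subunit) at 0.249. Cell wall and glycosylation had 3 of 25 (5 late-listed), PMT5_2407, PMT2_2543 and PMT5_1021, all in genes of protein O-mannosyltransferases, at 0.532, 0.64 and 0.783. Chromatin had 2 of 17 (10 late-listed), HIR1_2697 at 0.616 and CAC2_647 at 0.634, both in genes of histone chaperone subunits. Histones had HTA2_677 as 1 of 3 (1 late-listed). Proteasome and ubiquitin had 3 of 33 (6 late-listed), UBP5_2429, APC1_4820 and HUL5_2605, at 0.722, 0.753 and 0.797.

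Metabolic groups held few late-listed sites and few members. Lipid, sterol and inositol synthesis had 4 late-listed among 29 sites and 1 member, HMG2_491 (HMG-CoA reductase) at 0.692. Acetate use had 2 late-listed of 14 and the member ADR1_3165 at 0.755, and respiration 3 of 12 and the member MDH1_732 (mitochondrial malate dehydrogenase) at 0.737. Autophagy had 2 of 8 and the member ATG11_2447. Regulators of meiotic entry had RIM15_3949, a protein kinase, at 0.776 as 1 of 5 (1 late-listed). Mitotic growth had SWE1_696, the Wee1 kinase, at 0.76 as 1 of 5 (2 late-listed). There was no member among 9 sites of glycolysis, 9 of heat shock, 3 of the m6A machinery, 1 of haploid genes and 1 of ribosomal proteins, and ribosome biogenesis had 0 listed sites. The sites of glycolysis, heat shock, haploid genes and ribosomal proteins included 0 late-listed ones, so none could be a member by the rule. Those of the m6A machinery included 1. These counts describe the lists, which were not tested against each other.

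The last comparison asked whether the members changed between the start and the end of the hours in which they were listed, as the mean of 7 and 8 h minus the mean of 2 and 3 h. It was fitted with limma over all 499 sites with at least 2 values in each of the windows 2 to 3 h, 3.5 to 6 h and 7 to 8 h, and 49 of the 225 members were among them. No member was lower and none higher at an adjusted p under 0.05 (limma with Benjamini-Hochberg adjustment, 0 of 499 sites in either direction, 0%). At an unadjusted p under 0.05, 4 members were lower and 3 higher, where 8.62% of all sites tested were lower and 3.21% higher. The difference was negative in 28 of 49 members (57.1%), against 293 of all 499 sites (58.7%), with medians of -0.0225 and -0.0141. The median SE of a member's difference was 0.0915, against 0.0538 over all sites. In simulated data at the 499 sites, 24.3% of differences of -0.1 and 63.3% of -0.2 passed the same threshold. These shares pool all sites tested, and many sites were changed at once in the simulation. With the larger SE of the members, the shares may be too high for them. Changes in members could thus be missed, and not only small ones. Both values at 7 and 8 h lay below both at 2 and 3 h in 13 of 49 members (24.4% of all tested sites) and above both in 5 (12.4% of all tested sites).

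**Figure D5:**
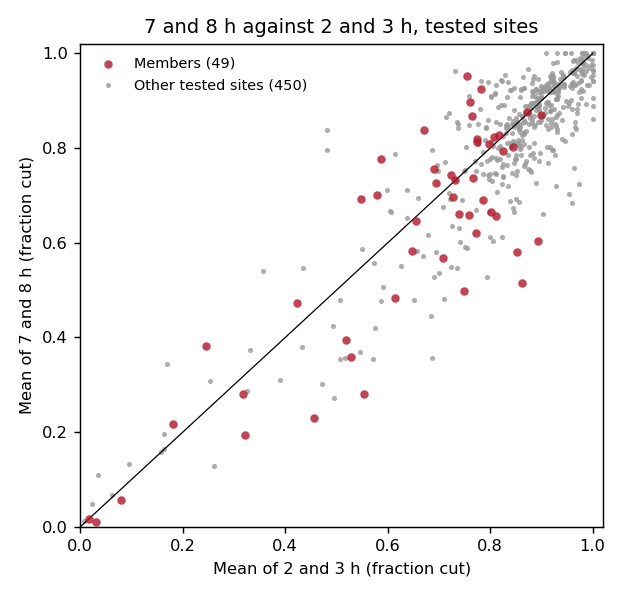
Mean cleavage efficiency (fraction cut) at 7 and 8 h (y axis) against that at 2 and 3 h (x axis) for the 49 members tested (red) and the other 450 sites tested (grey), with the line of equality. Of the 49 members, 28 lay below the line, and PIG2_1643, at 0.516 for 7 and 8 h against 0.862 for 2 and 3 h, lay farthest below it.

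None of the members that differed most passed the threshold. PIG2_1643, in the gene of a putative targeting subunit of the type 1 phosphatase, had 0.819, 0.905, 0.921, 0.694, 0.746, 0.492 and 0.539 at 2, 3, 3.5, 4, 6, 7 and 8 h. Its mean was 0.516 at 7 and 8 h, against 0.862 at 2 and 3 h, a difference of -0.346 ± 0.0848 (SE, limma, adjusted p = 0.233). PRD1_887, in the gene of a metalloendopeptidase, had 0.555, 0.55, 0.467, 0.485, 0.286, 0.366, 0.28 and 0.282 at 2, 3, 3.5, 4, 5, 6, 7 and 8 h. Its difference was -0.272 ± 0.0702 (SE, limma, adjusted p = 0.233), and its values at 7 and 8 h were the lowest of the course. Other large differences below 0 were -0.29 in SEC65_656, of the signal recognition particle, -0.273 in MDM1_3513, of contacts between endoplasmic reticulum and vacuole, and -0.249 in PPQ1_1062, a protein phosphatase. That of SEC65_656 was -0.183 without the 2 h library and -0.158 without 7 h, and that of PPQ1_1062 was -0.0976 without 2 h and -0.4 without 3 h.

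In the other direction, PMT5_1021 had a mean of 0.952 at 7 and 8 h, against 0.755 at 2 and 3 h, a difference of 0.196 ± 0.0821 (SE, limma, adjusted p = 0.385). GDE1_2198, a glycerophosphocholine phosphodiesterase, had a mean of 0.778 at 7 and 8 h, against 0.587 at 2 and 3 h (0.191). KAR2_1634, the Hsp70 chaperone of the endoplasmic reticulum, had 0.838 at 7 and 8 h, against 0.671 at 2 and 3 h (0.167). RAD54_2528 followed at 0.145, LPP1_921, a lipid phosphate phosphatase, at 0.142 and ITR2_2047, an inositol transporter, at 0.136. ITR2_2047 had 0.0594, 0.43, 0.249, 0.133, 0.0761, 0.148, 0.375 and 0.387 at 2, 3, 3.5, 4, 5, 6, 7 and 8 h. Its difference turned to -0.0487 without the 2 h library and was 0.322 without 3 h. The difference of RAD54_2528 was 0.272 without 7 h and 0.0188 without 8 h. Each p-value here measures the scatter of single libraries around the mean of their window, which neighbouring times of 1 course share.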

How the data were processed

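PolyA RNA of each time point was treated with MazF, per the file headers, and cleavage efficiencies per site were deposited by the authors as a fraction from 0 to 1. STAR 2.5.3a and bedtools 2.26.0 were used, per the submitters' processing notes. Not given in the sources used here are the read counts behind a value, how cut and uncut reads were defined, the rule for missing values and the build. The table holds 1198 rows, and removing 14 repeats of a position left 1184 sites. Columns were tied to samples by hour. The 4 columns whose names match no label were used in no step, so the control samples and the comparison of the ime4 deletion with wild type were not analysed here.

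Sites were matched to R64 through their position in the gene. Taking the table's position as counted from an upstream flank, 1 offset per strand placed an ACA at 89.93% of plus-strand and 86.94% of minus-strand sites. Of the 901 offsets scanned per strand, those left after taking out the best ones and the offsets next to them gave at most 4.124%. The deposited coordinates belong to another build and are not printed. R64 gave a symbol to 212 members.

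The contrast of 7 and 8 h with 2 and 3 h was fitted to unscaled fractions with limma 3.58.1 in R 4.3.3, two-sided, with a mean-dependent prior variance over 8 libraries in 3 windows, and adjusted by Benjamini-Hochberg at 0.05. The fit was also run on simulated data with known differences, with means and spread taken from these 499 sites. Descriptions used pandas 2.3.3 and SciPy 1.17.1 under Python 3.11.15, with 95% Clopper-Pearson intervals. Alternatives covered the scale, centring, prior, missing values, filters, leaving out each library and the threshold of the rule.

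Sites named are the 12 lowest members, the 6 largest differences in each direction, up to 6 members per gene list, up to 6 genes with several members, and 3 sites on either side of the threshold. Others, among them the neighbouring sites that are no members, were picked after their values were seen. Some sites that this rule names are not reported here. The members and lists were chosen with earlier results of these data known.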

Additional observations from a re-analysis of the deposited data

How the results depend on the processing

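No paired analysis was possible because each hour has 1 library and the control samples were not analysed here. The settings listed for the ime4 deletion comparison were not run for the same reason. Over the alternatives for 7 and 8 h against 2 and 3 h, 0 members were lower and 0 higher in each, and the lowest adjusted p of a member (limma) ran from 0.15 to 0.402. Over all sites, 1 was lower with the libraries shifted to 1 median. Leaving out 1 library gave 0 to 2 lower sites over all, 2 without 6 h and 1 without 8 h, and 0 members. Leaving out 1 library moved the difference of ITR2_2047 between -0.0487 (without 2 h) and 0.322 (without 3 h), and the cause was not tested. The number of members was 353 at a threshold of 0.9 and 155 at 0.7, and 171 to 193 without any 1 of the 4 libraries that chose them.

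The share of members under 0.8 moved with the threshold of the rule, since a lower threshold keeps lower sites. At a threshold of 0.7 it was 85.4%, 83.3%, 89.2% and 80% at 2, 3, 7 and 8 h. At a threshold of 0.9 it was 51.9%, 51.5%, 59% and 51.1% at 2, 3, 7 and 8 h. Over the 46 members with a value at every hour from 2 to 8 h it was 80.4% at 3 h. With depth unknown, no counting error could be given for any value.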
